A study of Mus musculus with 11 samples.

Results

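The loss of Thpok was examined in mouse T helper 1 (Th1) effector cells that had kept the CD4+CD8- surface phenotype. The comparison sets the 3 arrays of Thpok-deficient CD4+CD8- cells against the 3 arrays of wild-type CD4+CD8- cells. These arrays were taken by their labels and make up 6 of the 11 arrays of the series. Thpok, the product of Zbtb7b, belongs to the BTB zinc finger family; it steers thymocytes selected on MHC class II into the CD4 helper lineage and restrains genes of the CD8 lineage. Th1 effectors arise under IL-12, make interferon-gamma and mainly help other cells, whereas perforin and granzymes are the usual equipment of CD8 effectors and natural killer (NK) cells. The question is which genes differ when cells without Thpok still display CD4 and no CD8.

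Cells of both genotypes started as naive CD44lo spleen T cells. Stimulation used anti-CD3 at 1 µg/ml together with anti-CD28 at 3 µg/ml, and C57BL/6 splenocytes, irradiated and depleted of Thy1.2+ cells, served as antigen-presenting cells. The Th1 condition came from IL-12 at 10 ng/ml with IL-4 blocked by antibody at 10 µg/ml, IL-2 was added at 50 U/ml, and effectors were sorted on day 4. The Thpok-deficient genotype is Thpokf/f CD2cre, in which Cre expressed from CD2 sequences deletes the floxed alleles. The stage of deletion was not tested, so loss during maturation and loss in mature cells cannot be told apart. The control genotype is wild-type, the mice's ages are not stated, and no group without Cre but with floxed alleles is among the arrays. The other 2 groups, used only for orientation, are wild-type CD4-CD8+ cells (2 arrays) and Thpok-deficient CD4+CD8+ cells (3 arrays). The replicates stem from 2 cell preparations that cannot be assigned to arrays from the labels. The p-values thus measure the spread between arrays, which may be partly technical.

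Values are the deposited log2 intensities of 16673 probe sets. A change is a log2 difference, Thpok-deficient minus wild-type CD4+CD8- cells, with the standard error (SE) of a limma fit to all 11 arrays. A gene is said to rise or fall only where its Benjamini-Hochberg adjusted p over all probe sets was under 0.05. Wild-type replicate 3 stood apart. The SD of its values over all probe sets was 1.54 against 1.96 to 2.06 on the other 5 arrays, and the median of 809 smell receptor probe sets, which serve as background in T cells, was 4.79 against 3.26 to 3.46. On that array the T cell markers below read lowest and the background read highest. The median SD of a probe set was 0.402 among the 3 wild-type arrays, 0.138 without replicate 3, and 0.121 among the 3 Thpok-deficient arrays. Over all probe sets the median change was -0.15 with replicate 3 and -0.04 without it. The main results are therefore given with all 3 wild-type arrays and again without replicate 3. Replicate 3 of the CD4+CD8+ cells, which enters the shared fit, also had a narrow range (SD 1.70).

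Markers of the sorted cells were checked first. T cell markers (7 of 8 measured, among them Cd3e and Thy1) had a mean log2 level of 10.04 to 10.99 in wild-type and 10.56 to 10.82 in Thpok-deficient cells. Cd4 read 10.87, 10.37 and 9.61 in wild-type and 9.38, 9.31 and 10.21 in Thpok-deficient cells. The groups overlapped, and the change of -0.65 ± 0.40 (SE) did not pass (limma adjusted p = 0.557). Zbtb7b read 8.71, 8.55 and 8.03 in wild-type cells (8.43 ± 0.35, SD, n = 3) and 6.77, 6.77 and 7.17 in Thpok-deficient cells (6.90 ± 0.23, SD, n = 3). All Thpok-deficient arrays lay below all wild-type arrays. The fall of 1.52 ± 0.25 just missed the threshold with all arrays (limma adjusted p = 0.0562) and passed it without wild-type replicate 3 (-1.73, adjusted p = 0.0266). The probe set is a summary over the gene, and the exons that the floxed alleles remove are not named in the labels, so a remaining signal cannot be read as remaining protein. Zbtb7a, the closest relative of Thpok, read 7.88, 7.63 and 6.82 in wild-type and 7.69, 7.52 and 7.55 in Thpok-deficient cells. The groups overlapped, and the sign of its change depended on replicate 3 (0.14 with it, -0.17 without it).

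The CD8 coreceptor genes read higher in the Thpok-deficient cells, although both groups were sorted as lacking CD8. Cd8a, which encodes the CD8 alpha chain, read 7.50, 6.41 and 6.99 in Thpok-deficient cells and 4.49, 4.78 and 6.14 in wild-type cells. The groups did not overlap, and the rise passed only without wild-type replicate 3 (2.33, limma adjusted p = 0.0247, against 1.83 ± 0.41 and 0.138 with it). Wild-type CD4-CD8+ cells read 11.78 and 11.56, so the level in Thpok-deficient cells lay well below that of CD8 cells (4.70 ± 0.46 lower, limma adjusted p = 0.00362). Cd8b1, the CD8 beta chain, read 7.36, 7.22 and 7.10 in wild-type and 8.47, 7.96 and 8.42 in Thpok-deficient cells. These groups also stood apart, and the change of 1.06 ± 0.18 missed the threshold (limma adjusted p = 0.0593). In such bulk samples fewer cells of a type and less RNA per cell cannot be told apart.

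With all 11 arrays in the fit, 11 probe sets rose and 3 fell between the 2 groups, which is 0.066% and 0.018% of those tested and 0.084% together. Without wild-type replicate 3, 16 rose and 9 fell (0.096% and 0.054%, and 0.15% together). Of the 26 probe sets called in either fit, 13 were called in both, and 24 carry a gene symbol. Among the genes that rose were those of a BTB zinc finger repressor, 2 granule proteins, an ion channel and a proton-sensing receptor. Among those that fell were an adhesion protein, a tetraspanin, a phosphodiesterase and a lysosomal protease. The number called rests on few arrays: it was 35 without wild-type replicate 1, 12 without wild-type replicate 2 and 2 without any 1 of the Thpok-deficient arrays. It was 1 when only the 6 arrays of the 2 groups were fitted. It also moved when an array of the other groups was left out of the fit, being 4 when replicate 2 of the CD4+CD8+ group was dropped, 16 for replicate 3 of that group, and 6 in the other cases.

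**Figure D1:**
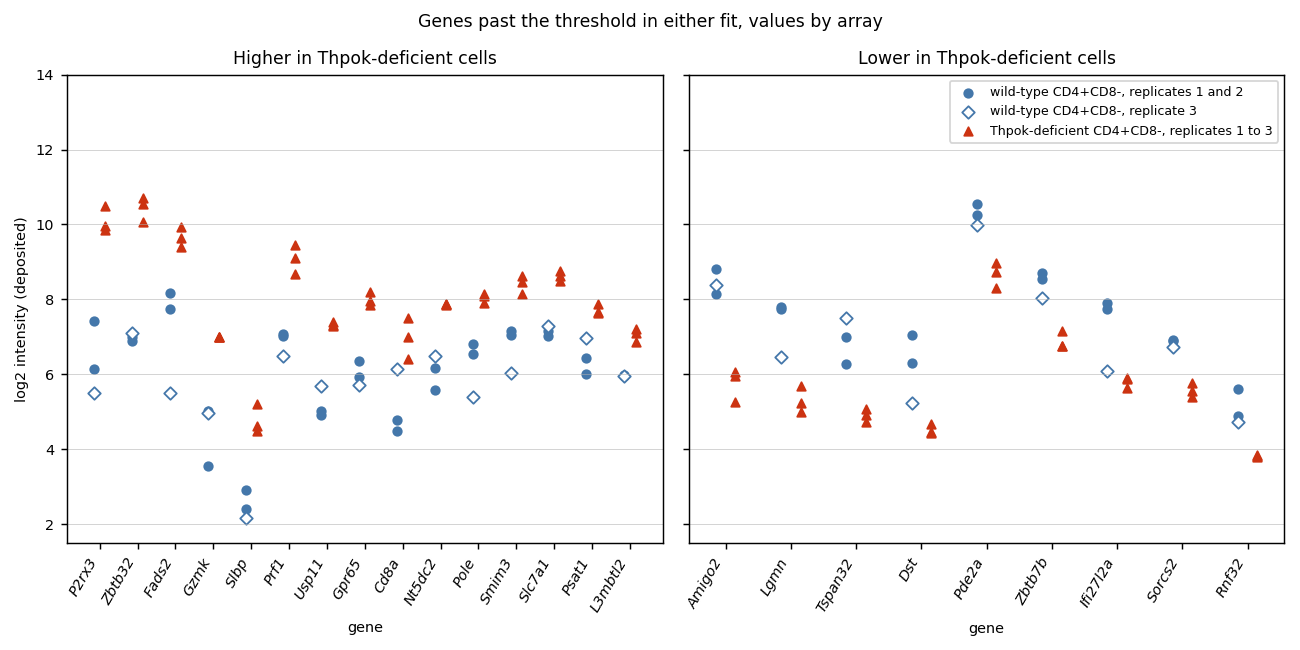
Deposited log2 intensity (vertical axis) of the 24 named genes past the threshold in either fit, by array: circles are wild-type replicates 1 and 2, open diamonds wild-type replicate 3, triangles the 3 Thpok-deficient CD4+CD8- arrays. No gene overlaps between the groups, and replicate 3 lies close to the Thpok-deficient arrays for Ifi27l2a (6.10 against 5.63 to 5.90) and Dst (5.25 against 4.43 to 4.69).

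Zbtb32, a BTB zinc finger repressor related to Thpok that restrains cytokine output of activated T cells, had the smallest p. It read 6.99, 6.89 and 7.11 in wild-type cells (6.99 ± 0.11, SD, n = 3) and 10.69, 10.55 and 10.07 in Thpok-deficient cells (10.44 ± 0.33, SD, n = 3). It rose by 3.44 ± 0.28, or 10.9-fold (limma adjusted p = 0.002), and the rise was as large without replicate 3 (3.50, adjusted p = 0.0132). L3mbtl2, an MBT domain protein of a repressive Polycomb complex, read 5.97, 6.00 and 5.96 against 7.20, 7.09 and 6.85. Its wild-type arrays lay close together, and the rise of 1.08 ± 0.16 was the smallest of the named rises in this fit (limma adjusted p = 0.0405).

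The granule genes Prf1 and Gzmk rose in both fits. Prf1, perforin, read 7.02, 7.07 and 6.49 in wild-type and 9.45, 8.67 and 9.12 in Thpok-deficient cells, a rise of 2.22 ± 0.28 or 4.66-fold (limma adjusted p = 0.0291). Gzmk, a granzyme with tryptase activity, read 3.55, 5.01 and 4.97 in wild-type and 7.002, 7.002 and 7.006 in Thpok-deficient cells. It rose by 2.49 ± 0.34 (limma adjusted p = 0.0314), with wild-type replicates 1 and 3 close to the smell receptor medians of their arrays (3.44 and 4.79) and replicate 2 well above its own (3.26). The size of this rise is thus measured partly against background.

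P2rx3, an ATP-gated cation channel best known from sensory neurons, had the largest rise. It read 6.15, 7.42 and 5.52 in wild-type and 9.95, 10.48 and 9.85 in Thpok-deficient cells. The change was 3.73 ± 0.52 (13.3-fold, limma adjusted p = 0.0336), and it missed the threshold without replicate 3 (3.31, adjusted p = 0.0529). Gpr65, a proton-sensing receptor of lymphocytes, read 6.36, 5.94 and 5.72 against 8.19, 7.95 and 7.85, a rise of 1.99 ± 0.23 (limma adjusted p = 0.0235). Its groups were more than 1 unit apart.

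Slc7a1, a carrier of arginine and lysine, read 7.03, 7.16 and 7.28 in wild-type and 8.64, 8.76 and 8.48 in Thpok-deficient cells and rose by 1.47 ± 0.22 (limma adjusted p = 0.0446). Usp11, a deubiquitinase, read 5.03, 4.93 and 5.68 against 7.32, 7.30 and 7.41 and rose by 2.13 ± 0.27 (limma adjusted p = 0.0291). Nt5dc2, a member of the 5'-nucleotidase domain family, rose by 1.79 ± 0.25 (limma adjusted p = 0.0336). All 3 genes were also called without replicate 3.

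Slbp, which binds the stem-loop of histone mRNAs and is needed for their processing in S phase, rose by 2.28 ± 0.30 (limma adjusted p = 0.0294), from a reading not above background. It read 2.40, 2.92 and 2.17 in wild-type cells, below the smell receptor median of the same arrays (3.44, 3.26 and 4.79), and 4.61, 5.22 and 4.50 in Thpok-deficient CD4+CD8- cells. With the wild-type level at background, the size of the rise is not an exact fold. The other Thpok-deficient cells, sorted as CD4+CD8+, read 2.51, 3.33 and 2.40, and wild-type CD4-CD8+ cells read 2.46 and 2.70. The 3 Thpok-deficient CD4+CD8- arrays were thus above the other 8 arrays. The direct differences from the CD4+CD8+ group (-2.03 ± 0.30, limma adjusted p = 0.195) and from CD8 cells (-2.20 ± 0.34, adjusted p = 0.194) did not pass the threshold.

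Amigo2, a leucine-rich repeat adhesion protein, had the largest fall. It read 8.15, 8.81 and 8.39 in wild-type cells (8.45 ± 0.33, SD, n = 3) and 5.28, 5.95 and 6.07 in Thpok-deficient cells (5.77 ± 0.43, SD, n = 3). It fell by 2.69 ± 0.25, or 6.43-fold (limma adjusted p = 0.00313), and by 2.72 without replicate 3 (adjusted p = 0.0147). Tspan32, a tetraspanin of blood cells, read 6.28, 7.002 and 7.50 against 4.74, 4.92 and 5.08 and fell by 2.01 ± 0.26 (limma adjusted p = 0.0294). Sorcs2, a receptor of the VPS10 sorting family, read 6.91, 6.88 and 6.72 against 5.40, 5.55 and 5.76 and fell by 1.26 ± 0.18 (limma adjusted p = 0.0336). These 3 genes were called in both fits.

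Promoters of the genes with the largest rises and falls of those called in all arrays are shown so that their sequence can be read beside the change. They are 300 bases around the gene start from RefSeq (GRCm38.p6), written 5' to 3' on the strand of the gene, at chr7:30598860-30599159 (-) for Zbtb32, chr13:113180916-113181215 (-) for Gzmk, chr5:33652525-33652824 (-) for Slbp, chr15:97247238-97247537 (-) for Amigo2 and chr7:143004796-143005095 (+) for Tspan32. P2rx3 has no entry in the table. Capitals mark matches to the core of T-box sites (AGGTGT) or of Runx sites (TGTGGT) on either strand, and no 2 matches overlap.
Zbtb32: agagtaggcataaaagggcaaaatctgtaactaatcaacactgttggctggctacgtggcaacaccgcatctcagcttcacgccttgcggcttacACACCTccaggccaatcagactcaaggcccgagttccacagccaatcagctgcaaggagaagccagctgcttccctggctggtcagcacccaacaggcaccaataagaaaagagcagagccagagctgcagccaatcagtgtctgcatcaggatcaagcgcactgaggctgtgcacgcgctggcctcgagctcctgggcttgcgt
Gzmk: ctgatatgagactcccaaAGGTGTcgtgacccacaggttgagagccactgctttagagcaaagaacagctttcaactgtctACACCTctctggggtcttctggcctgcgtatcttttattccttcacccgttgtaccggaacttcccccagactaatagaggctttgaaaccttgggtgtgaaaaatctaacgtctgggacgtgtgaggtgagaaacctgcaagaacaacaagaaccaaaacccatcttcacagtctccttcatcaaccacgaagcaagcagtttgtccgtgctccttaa
Slbp: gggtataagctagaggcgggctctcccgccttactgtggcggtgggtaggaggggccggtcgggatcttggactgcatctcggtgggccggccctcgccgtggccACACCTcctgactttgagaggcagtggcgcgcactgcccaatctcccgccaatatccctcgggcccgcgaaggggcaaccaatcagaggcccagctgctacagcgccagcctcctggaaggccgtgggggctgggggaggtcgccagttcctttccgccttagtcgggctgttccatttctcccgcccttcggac
Amigo2: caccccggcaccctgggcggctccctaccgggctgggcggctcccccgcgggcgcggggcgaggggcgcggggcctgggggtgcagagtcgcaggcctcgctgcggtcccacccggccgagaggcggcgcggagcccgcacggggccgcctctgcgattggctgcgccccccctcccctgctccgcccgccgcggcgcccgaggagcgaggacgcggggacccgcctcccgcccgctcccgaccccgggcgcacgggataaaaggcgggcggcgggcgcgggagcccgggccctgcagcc
Tspan32: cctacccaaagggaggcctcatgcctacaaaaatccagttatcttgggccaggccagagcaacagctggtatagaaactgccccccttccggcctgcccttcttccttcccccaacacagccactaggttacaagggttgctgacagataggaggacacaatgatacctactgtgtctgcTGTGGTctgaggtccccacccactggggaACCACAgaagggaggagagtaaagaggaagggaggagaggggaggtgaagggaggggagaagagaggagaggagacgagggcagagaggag

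The T-box core stood at 1 place in Zbtb32 and Slbp and at 2 places in Gzmk, and the Runx core at 2 places in Tspan32. Amigo2 held neither. Of the 24 named genes, 19 have a promoter in the table. The T-box core was found in 4 of the 12 that rose (Gzmk, Prf1, Slbp and Zbtb32) and in 1 of the 7 that fell (Lgmn), against 13.9% of all 27025 promoters and 1426 of the 11877 promoters of genes on the array. The Runx core was found in 2 of 12 (Prf1 and Usp11) and 3 of 7 (Lgmn, Rnf32 and Tspan32), against 16.9% of all promoters and 13.3% of those on the array, and the E2F core (GCGGGAA) in 1 of 12 (Nt5dc2) and 0 of 7, against 4.66% and 6.78% in the same order. These are letter matches in a short window and a description only.

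Leaving out wild-type replicate 3 added 12 calls. Of the rises, Psat1, an enzyme of serine synthesis, read 6.01 and 6.44 in the remaining wild-type arrays and 7.68, 7.63 and 7.88 in Thpok-deficient cells (1.5, limma adjusted p = 0.0252). Pole, the catalytic subunit of DNA polymerase epsilon, read 6.82 and 6.56 against 8.09, 8.15 and 7.90 (1.36, adjusted p = 0.0279). Fads2, a fatty acid desaturase, read 8.17 and 7.75 against 9.64, 9.41 and 9.92 (1.70, adjusted p = 0.0205). In all 3 genes the lowest Thpok-deficient array was above the highest wild-type array, replicate 3 included. Smim3, a small membrane protein, rose by 1.31 (limma adjusted p = 0.0247).

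The falls added were Lgmn, Dst, Pde2a, Ifi27l2a, Rnf32 and Zbtb7b. Pde2a, a phosphodiesterase that breaks down cAMP and cGMP, read 10.26 and 10.55 in wild-type and 8.31, 8.97 and 8.73 in Thpok-deficient cells (-1.74, limma adjusted p = 0.0354). Lgmn, the lysosomal protease legumain, read 7.73 and 7.79 against 5.01, 5.24 and 5.70 (-2.45, limma adjusted p = 0.0186). Dst, a cytoskeletal linker, fell by 2.15 (adjusted p = 0.0147), Ifi27l2a, an interferon-induced gene, by 2.03 (adjusted p = 0.0205) and Rnf32, a RING finger protein, by 1.42 (adjusted p = 0.0354).

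**Figure D2:**
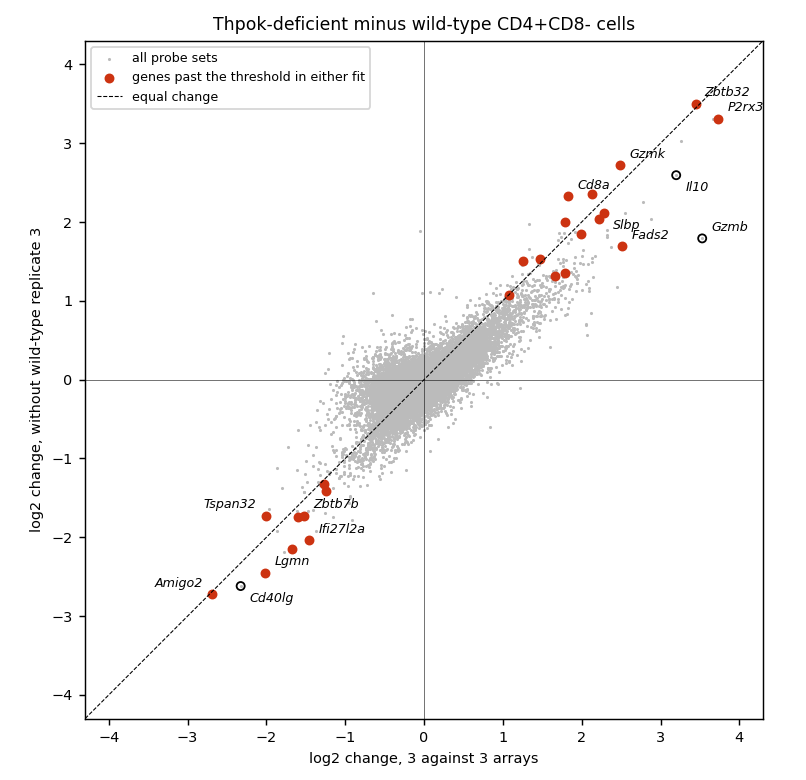
Log2 change of every probe set with 3 against 3 arrays (horizontal axis) and without wild-type replicate 3 (vertical axis); filled points are the named genes past the threshold in either fit, open circles are Gzmb, Il10 and Cd40lg, and the broken line marks equal change. Zbtb32 (3.44 and 3.50) and Amigo2 (-2.69 and -2.72) lie on the line, while Gzmb (3.53 and 1.79) lies far below it.

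Beyond these calls, many genes separated the 6 arrays without passing the adjusted test. All 3 Thpok-deficient arrays were above all 3 wild-type arrays for 1814 probe sets (10.9%) and below them for 1500 (9.0%). In 1474 of the 1814, wild-type replicate 3 was the lowest of the 6 arrays. A stricter count takes probe sets that did not overlap and had an unadjusted p under 0.01 in both fits, which left 283 higher (1.7%) and 97 lower (0.582%) in Thpok-deficient cells. The largest differences among them, none past the adjusted threshold unless named above, are given next.

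On the high side of this stricter count stood Gzmb (granzyme B), Il10, Adam8, Ccne2, Gzma and Tnfrsf9. Il10, which encodes an inhibitory cytokine that strongly stimulated Th1 cells also make, read 7.01, 5.66 and 4.52 in wild-type and 9.59, 8.33 and 8.87 in Thpok-deficient cells (3.20 ± 0.56, limma adjusted p = 0.06). Wild-type replicate 3 read below the smell receptor median of its array (4.79), and without it the Il10 difference was 2.59 (limma adjusted p = 0.0958). Gzmb read 10.68, 9.40 and 4.83 against 11.97, 11.54 and 11.99. Replicate 3 set much of this difference, which was 3.53 ± 1.10 with it and 1.79 without it (limma adjusted p = 0.249 and 0.0958). Adam8, a metalloprotease of leukocytes, differed by 2.55 ± 0.43 (limma adjusted p = 0.0575) and Tnfrsf9, the costimulatory receptor 4-1BB, by 2.32 ± 0.38 (adjusted p = 0.0562).

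On the low side, Cd40lg, the CD40 ligand through which helper T cells license B cells and dendritic cells, read 9.34, 8.98 and 8.29 in wild-type and 6.05, 6.14 and 7.43 in Thpok-deficient cells. The groups did not overlap, and the difference of -2.33 ± 0.46 missed the threshold (limma adjusted p = 0.103, and 0.0958 without replicate 3). Klf3, a Kruppel-like repressor, differed by -1.86 ± 0.30 (limma adjusted p = 0.0562), Ccr7, the lymph node homing receptor, by -1.52 ± 0.31 (adjusted p = 0.108) and Tnfrsf25, the death domain receptor DR3, by -1.52 ± 0.32 (adjusted p = 0.114). Igfbp4, B3galt2, Itih5, Btbd11 and Timp2 were also among the largest differences on this side, at -1.80, -1.77, -1.62, -1.51 and -1.47.

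Genes were then read by function, in 45 lists with 786 measured genes. Counts of non-overlapping members are to be read against the 10.9% and 9.0% above (13.7% and 16.0% without replicate 3), and medians against -0.15 and -0.04.

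Genes of DNA replication and mitosis read higher in Thpok-deficient cells. In 34 of 36 measured replication genes all Thpok-deficient arrays lay above all wild-type arrays, and 14 met the stricter count (background 1.7%). The list median was 1.22 with all arrays and 0.93 without replicate 3. Pole alone was called, and only without replicate 3. Rrm1, a subunit of ribonucleotide reductase, read 8.22, 8.63 and 6.60 in wild-type and 10.05, 10.29 and 9.36 in Thpok-deficient cells (2.08 ± 0.47, limma adjusted p = 0.139). Uhrf1, which helps copy DNA methylation, differed by 1.90 ± 0.39 and Mcm5, part of the replicative helicase, by 1.87 ± 0.47, both short of the threshold.

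Of 37 mitosis genes, 29 did not overlap and were higher in Thpok-deficient cells and 15 met the stricter count, with a median of 1.49 (0.95 without replicate 3). Bub1, a spindle checkpoint kinase, read 5.37, 7.01 and 4.37 in wild-type and 7.93, 8.07 and 7.28 in Thpok-deficient cells (2.17 ± 0.56, limma adjusted p = 0.173). Ccna2 (cyclin A2), Top2a (topoisomerase II alpha) and Nusap1 (a spindle protein) differed by 2.15, 2.09 and 2.09 (1.31, 1.12 and 1.16 without replicate 3). In these genes wild-type replicate 2 was the highest of the wild-type arrays and replicate 3 the lowest. Thpok-deficient replicate 3 was the lowest of its group, as in the list mean (8.67, 8.54 and 8.04). The wild-type list means spread more widely, at 7.06, 7.92 and 5.79, and wild-type replicate 2 came close to Thpok-deficient replicate 3.

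Repair and cell cycle control genes were read next. In 18 of 21 repair genes the arrays did not overlap and Thpok-deficient cells read higher, with a median of 1.02 (0.80). Chek1, a checkpoint kinase, differed by 1.67 ± 0.35 (limma adjusted p = 0.115), and Blm, a helicase, by 1.46 ± 0.32. Among 24 cell cycle regulators 11 were higher without overlap and 1 was lower, with a median of 0.73 (0.39). Ccne2 (cyclin E2), E2f8, Cdk6 and Wee1 led them with differences of 2.38, 1.74, 1.45 and 1.43 (1.68, 1.35, 1.14 and 1.14 without replicate 3). For Ccne2, wild-type replicate 3 read 3.70, below the smell receptor median of that array (4.79). Of the histone supply genes 6 of 13 were higher without overlap, with a median of 0.70 (0.35). Slbp was the only call, and Asf1b, a histone chaperone, read 8.29, 8.61 and 6.83 against 9.95, 10.19 and 9.36. The stricter count was met by 9 repair genes, 4 cell cycle regulators and 4 histone supply genes.

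**Figure D3:**
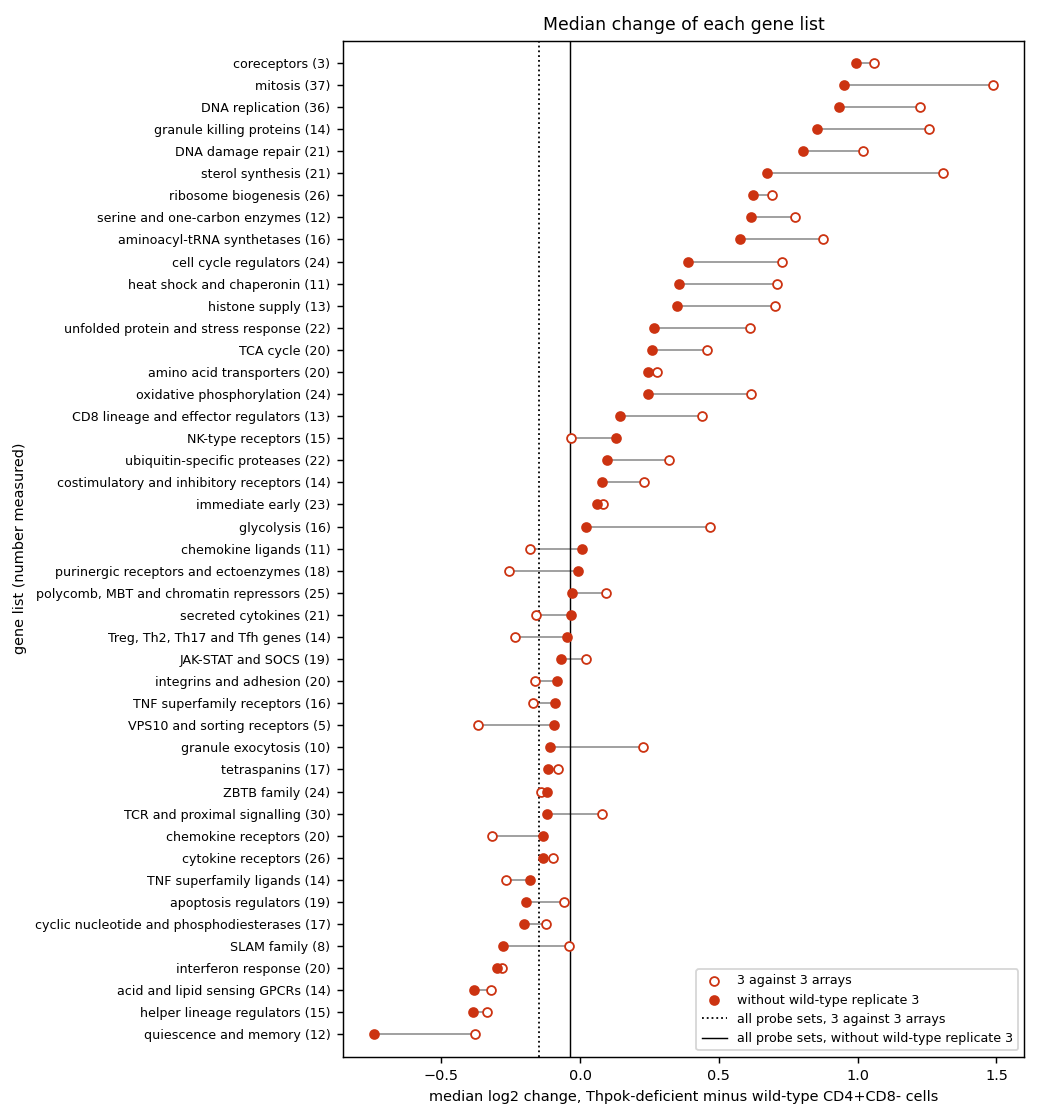
Median log2 change (horizontal axis) of each of the 45 gene lists, with the number of measured genes in brackets; open circles take 3 against 3 arrays, filled circles leave out wild-type replicate 3, and the vertical lines mark the median of all probe sets in each case. Mitosis moved from 1.49 to 0.95 and glycolysis from 0.47 to 0.02, while the quiescence and memory list moved from -0.38 to -0.74.

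Genes of protein synthesis gave medians above that of all probe sets. Of 16 cytosolic aminoacyl-tRNA synthetases, 13 were higher without overlap, with a median of 0.88 (0.58 without replicate 3), among them Iars (1.40 ± 0.33, limma adjusted p = 0.143). Of 26 genes of ribosome biogenesis, 19 were higher without overlap, and their median hardly depended on replicate 3 (0.69 and 0.62). Nop56, a core protein of snoRNPs, read 9.20, 9.18 and 9.01 in wild-type and 10.22, 10.47 and 10.00 in Thpok-deficient cells (1.10 ± 0.32, limma adjusted p = 0.209). The stricter count was met by 2 of the synthetases and 3 of the ribosome biogenesis genes. None of these genes passed the adjusted threshold.

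Slc7a1 was the only called transporter of 20, and 9 of the 20 were higher without overlap and 1 lower, with a median of 0.28 (0.24). The stricter count was met by 3 transporters. Slc7a5, the large neutral amino acid carrier, read 8.52, 8.22 and 8.10 against 10.06, 9.79 and 10.60 (1.87 ± 0.30, limma adjusted p = 0.0562), and its partner chain Slc3a2 differed by 1.08 ± 0.29. Slc43a3 differed by 2.00 ± 0.35 (limma adjusted p = 0.06). In serine and one-carbon metabolism 7 of 12 genes were higher without overlap and 3 met the stricter count, with a median of 0.77 (0.62). Shmt2, the mitochondrial serine hydroxymethyltransferase, read 7.15, 6.90 and 6.30 against 8.33, 8.36 and 8.83 (1.72 ± 0.28, limma adjusted p = 0.0562). Asns, asparagine synthetase, varied most within the Thpok-deficient group, with 6.62, 5.30 and 8.34.

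The median of the sterol synthesis genes, a list that also holds genes of fatty acid synthesis, depended on replicate 3. Of 21 genes 16 were higher without overlap (17 without replicate 3), and 5 met the stricter count. The median went from 1.31 to 0.68 without replicate 3, and none was called. Hmgcs1, which makes HMG-CoA, read 9.34, 8.69 and 6.53 in wild-type and 10.22, 10.00 and 10.57 in Thpok-deficient cells (2.08 ± 0.63, limma adjusted p = 0.237). Msmo1 and Cyp51, which demethylate sterol intermediates, both differed by 1.94. Scd1, a fatty acid desaturase, had the largest difference of the list (2.32 ± 0.70, limma adjusted p = 0.237). Thpok-deficient replicate 3, the lowest of its group for mitosis, was the highest for this list (mean 9.14 against 8.81 and 8.52).

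In glycolysis only 2 of 16 genes were higher without overlap, and the median of 0.47 went to 0.02 without replicate 3. Among 24 genes of oxidative phosphorylation 8 were higher without overlap (0.61, and 0.24 without replicate 3). In the TCA cycle 9 of 20 were (0.46 and 0.26), led by Idh3a (1.27 ± 0.39, limma adjusted p = 0.243). The stricter count was met by 0 genes of oxidative phosphorylation and 0 of the TCA cycle. The 22 genes of the unfolded protein and stress response, which include transcription factors and stress-induced genes beside chaperones, had a median of 0.61 (0.27 without replicate 3). The 11 heat shock and chaperonin genes had one of 0.71 (0.36). All 5 of these medians were smaller without that array.

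**Figure D4:**
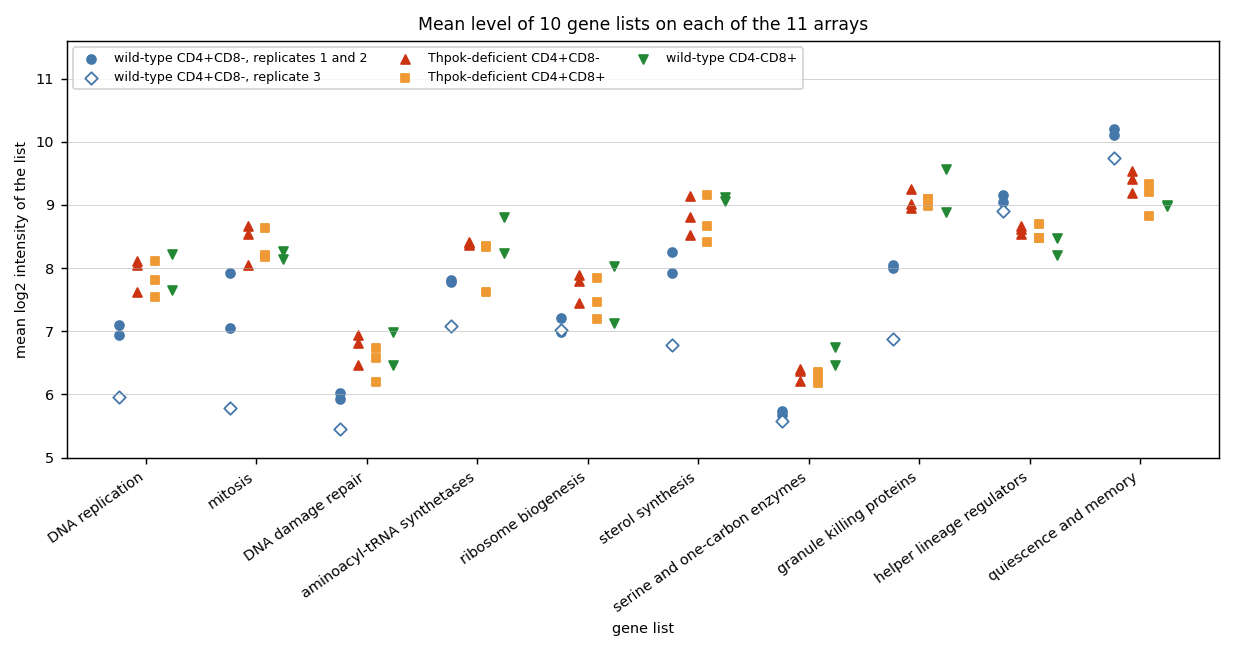
Mean log2 intensity (vertical axis) of 10 gene lists on each array, with circles for wild-type CD4+CD8- replicates 1 and 2, open diamonds for replicate 3, triangles for Thpok-deficient CD4+CD8- arrays, squares for Thpok-deficient CD4+CD8+ arrays and inverted triangles for wild-type CD4-CD8+ arrays. The Thpok-deficient CD4+CD8- arrays lie at 7.62 to 8.12 for DNA replication against 5.96 to 7.09 in wild-type CD4+CD8- cells, and at 9.19 to 9.53 for quiescence and memory against 9.75 to 10.20.

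Other killing genes were measured beside Prf1 and Gzmk. Of 14 granule killing genes, 9 were higher without overlap and 6 met the stricter count. The list also holds death ligands and serpins (protease inhibitors), and its median was 1.26 (0.85 without replicate 3). Gzma, granzyme A, read 8.56, 7.10 and 6.38 in wild-type and 9.75, 9.37 and 9.88 in Thpok-deficient cells (2.32 ± 0.46, limma adjusted p = 0.103). Tnfsf10, the death ligand TRAIL, read 7.21, 6.84 and 6.46 against 8.30, 8.27 and 8.49 (1.51 ± 0.23, limma adjusted p = 0.0501). The 10 genes that dock and release granules had a median of 0.22 (-0.11), Rab27a being higher without overlap (1.09 ± 0.42) and Lyst lower (-0.78 ± 0.25), neither past the threshold.

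Receptors typical of NK and cytotoxic cells had a list median near that of all probe sets (-0.03 for 15 genes, and 0.13 without replicate 3). Klrd1 (CD94) read 7.25, 7.999 and 5.72 in wild-type and 9.62, 8.93 and 8.80 in Thpok-deficient cells (2.13 ± 0.59, limma adjusted p = 0.192). Cd160 read 5.02, 4.78 and 5.12 against 7.10, 6.83 and 6.19 (1.74 ± 0.30, limma adjusted p = 0.0593). The 14 costimulatory and inhibitory receptors had a median of 0.23 (0.08), with 4 higher and 1 lower without overlap. The one lower was Cd200r1, an inhibitory receptor named after its value was seen (-1.06 ± 0.24, limma adjusted p = 0.143). Cd160 was among the 4 higher, and the others, Havcr2 (TIM-3), Pdcd1 (PD-1) and Lag3 differed by 1.92, 1.56 and 1.42 without overlap and without passing the threshold. Slamf7, a SLAM family receptor of cytotoxic cells, differed by 1.53 ± 0.37 (limma adjusted p = 0.153), while its relative Slamf6 was at -0.92 ± 0.51 with overlapping arrays.

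Transcription factors of CD8 effectors gave differences from -0.68 to 1.11, none past the threshold. The largest was that of Nfil3 (1.11 ± 0.70, limma adjusted p = 0.557, and 0.28 without replicate 3), with overlapping arrays. Runx3, which opposes Thpok in the thymus, read 10.31, 10.31 and 9.58 in wild-type and 10.27, 10.33 and 10.49 in Thpok-deficient cells, so the groups overlapped (0.30 ± 0.30, 95% interval -0.36 to 0.95). Eomes, a T-box factor of cytotoxic cells, read 6.37, 6.13 and 6.70 against 6.90, 7.42 and 6.78 (0.64 ± 0.28, limma adjusted p = 0.45). Tbx21 (T-bet), the Th1 factor, read 9.43, 9.60 and 9.29 against 9.87, 10.04 and 9.72 (0.44 ± 0.22, adjusted p = 0.544). Eomes and Tbx21 separated the arrays by small margins, and for Runx3 and Tbx21 the sign turned when each array was scaled to an equal median absolute deviation (-0.37 and -0.17). Over the 13 regulators of this list the median was 0.44, and 0.14 without replicate 3.

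Of 15 helper regulators, 7 were lower without overlap and none higher, with a median of -0.34 (-0.39 without replicate 3). Zbtb7b, the deleted gene itself, is among the 7, and so is Klf2, which is also in the quiescence list below. Gata3, which acts upstream of Thpok and drives Th2 cells, read 9.56, 9.79 and 8.82 in wild-type and 8.48, 8.59 and 8.73 in Thpok-deficient cells (-0.79 ± 0.29, limma adjusted p = 0.359, and -1.07 with 0.194 without replicate 3). Among 24 measured ZBTB family genes, Zbtb32 and Zbtb7b were the only calls and lay at opposite ends. Zbtb18 was lower without overlap (-0.74 ± 0.24, limma adjusted p = 0.261), and the median of the family was -0.14 (-0.12).

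Genes of quiescent and recirculating T cells had the lowest median of the 45 lists without replicate 3 (-0.74, and -0.38 with it), with 5 of 12 lower without overlap (6 without replicate 3). Klf2, which maintains quiescence and drives exit from tissues, read 8.52, 9.35 and 8.28 in wild-type and 7.57, 7.81 and 7.29 in Thpok-deficient cells (-1.16 ± 0.30, limma adjusted p = 0.177). Its target S1pr1, the egress receptor, read 10.00, 10.87 and 10.77 against 8.85, 9.75 and 9.08 (-1.32 ± 0.36, limma adjusted p = 0.192). With Klf3 and Ccr7, these are 4 genes of the same list with non-overlapping arrays, all short of the threshold. The 20 chemokine receptor genes, which include Ccr7 and S1pr1, had a median of -0.32 (-0.13).

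Secreted factors gave a few large differences and a list near the background (median of 21 cytokine genes -0.16 and -0.03). Ifng, the signature Th1 cytokine, read 10.48, 9.88 and 7.63 in wild-type and 11.46, 11.03 and 11.14 in Thpok-deficient cells. The groups did not overlap, and the difference was 1.88 ± 0.56 with replicate 3 and 1.03 without it (limma adjusted p = 0.23 and 0.132). Il21, a cytokine of helper cells, read 4.96, 5.19 and 4.11 against 3.69, 4.13 and 4.04 (-0.80 ± 0.27, limma adjusted p = 0.298, and -1.12 with 0.0752 without replicate 3), and its arrays overlapped at replicate 3. Ccl3, an inflammatory chemokine, spread from 6.82 to 9.14 in Thpok-deficient cells and overlapped wild-type cells. Tnfsf8, the CD30 ligand, read 5.49, 7.91 and 7.66 against 5.20, 5.58 and 4.38, with overlapping arrays.

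The 26 cytokine receptor genes had a median of -0.10 (-0.13), with Il12rb1, a chain of the IL-12 receptor, at 1.07 ± 0.33 and Ifngr2, a chain of the interferon-gamma receptor, at -0.87 ± 0.26, neither past the threshold. The 30 genes of T cell receptor signalling gave 0.08 (-0.12), 19 JAK-STAT and SOCS genes 0.02 (-0.07) and 23 immediate early genes 0.08 (0.06). Of 19 apoptosis regulators, Bid, which links caspases to mitochondria, was higher without overlap (0.57 ± 0.16, limma adjusted p = 0.214), and the median was -0.06 (-0.20).

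The families of the called receptors and enzymes were read beside them. Of 18 purinergic receptors and ectoenzymes the median was -0.26 (-0.01), and beside P2rx3 the largest difference was in P2ry14, a receptor for UDP-glucose (7.32, 7.34 and 5.69 against 9.30, 8.36 and 8.74; 2.02 ± 0.62, limma adjusted p = 0.24). Acid and lipid sensing receptors had a median of -0.32 (-0.38) although Gpr65 rose, with Vipr1, a receptor for vasoactive intestinal peptide, at -1.21 ± 0.27 and Ptgir, the prostacyclin receptor, at -0.84 ± 0.23. Tetraspanins gave -0.08 (-0.12), phosphodiesterases and cyclic nucleotide genes -0.12 (-0.20), and ubiquitin-specific proteases 0.32 (0.10). Usp1 and Usp10 were higher without overlap (1.63 ± 0.40 and 1.32 ± 0.24), and Ezh2 and Cbx7 of the chromatin repressors differed in opposite directions (1.16 ± 0.27 and -1.12 ± 0.34), none of them past the threshold.

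Of 20 interferon-induced genes, 5 were lower and 1 higher without overlap, with a median of -0.28 (-0.30). Ifih1, a sensor of double-stranded RNA, read 5.35, 5.71 and 5.19 in wild-type and 4.55, 4.51 and 4.50 in Thpok-deficient cells (-0.90 ± 0.18, limma adjusted p = 0.108). Irf8 went the other way, with 8.57, 8.77 and 7.49 against 9.70, 9.81 and 9.23 (1.30 ± 0.36, adjusted p = 0.192). Genes of Treg, Th2, Th17 and Tfh cells had a median near that of all probe sets (-0.23 and -0.05 for 14 genes).

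Markers of other cells were checked because antigen-presenting cells were in the cultures and because Lgmn is abundant in myeloid cells. Of 12 myeloid and antigen-presenting cell markers 9 were measured, with a mean level of 5.04 to 5.33 in wild-type and 4.75 to 5.14 in Thpok-deficient cells. Ctss read 8.33, 8.08 and 7.44 in wild-type and 7.08, 7.24 and 7.91 in Thpok-deficient cells, and Itgam 6.74, 6.21 and 5.53 against 5.24, 5.05 and 5.86, both overlapping, and 0 of the 9 separated the 6 arrays. Without replicate 3, the fit in which Lgmn was called, Ctss and Itgam were lower in Thpok-deficient cells without overlap (-0.80 and -1.09, limma adjusted p = 0.73 and 0.369), and 8 of the 9 differences were below 0. The defining markers Csf1r and Cd14, named for that role and not by size, read 3.77 to 4.37 on 5 arrays and 4.72 and 4.74 on wild-type replicate 3, a little above the smell receptor background except on that array. The part of such cells in the fall of Lgmn was not tested. B cell markers (7 of 8 measured) had a mean of 4.44 to 5.38 in wild-type and 4.43 to 4.62 in Thpok-deficient cells, and NK markers (3 of 7 measured) 4.50 to 4.97 and 4.68 to 4.87. Their highest wild-type mean was that of replicate 3 in both lists. Gamma-delta T (2 of 5 measured), erythroid (2 of 5) and tissue markers (6 of 10) were also highest in that array, at 6.36, 5.10 and 4.71.

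Set against the other 2 groups, Thpok-deficient CD4+CD8- cells gave few calls. Against wild-type CD4-CD8+ cells 3 probe sets were called (2 higher and 1 lower in CD8 cells, 0.012% and 0.006% of those tested): Cd8a, Cd8b1 and Cd4, the genes of the sort. A further count at an unadjusted p under 0.05 gave 398. Against Thpok-deficient CD4+CD8+ cells limma called 0 probe sets with all arrays and 1 without wild-type replicate 3, and 338 had an unadjusted p under 0.05. The counts of 398 and 338 are each a smaller share than the 0.05 that such a cut passes where nothing differs. With 2 or 3 arrays a group, genes short of the threshold cannot be taken as equal.

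The called genes can be read beside these groups. Zbtb32 read 9.85 and 10.84 in CD8 cells and 10.20, 10.80 and 10.80 in CD4+CD8+ cells. Amigo2 read 5.36 and 5.29 in CD8 cells and 5.81, 6.14 and 5.84 in CD4+CD8+ cells. The comparisons of either group with wild-type CD4+CD8- cells share the wild-type arrays with the main comparison, so the levels are given only side by side. Cd40lg read 4.14 and 4.25 in CD8 cells, below the 6.05 to 7.43 of Thpok-deficient CD4+CD8- cells (-2.35 ± 0.51, limma adjusted p = 0.796). Tnfrsf25, with 5.41 and 5.67 in CD8 cells against 6.74 to 7.41, was also lower in CD8 cells (-1.50 ± 0.35, adjusted p = 0.873), and neither difference passed the threshold.

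**Figure D5:**
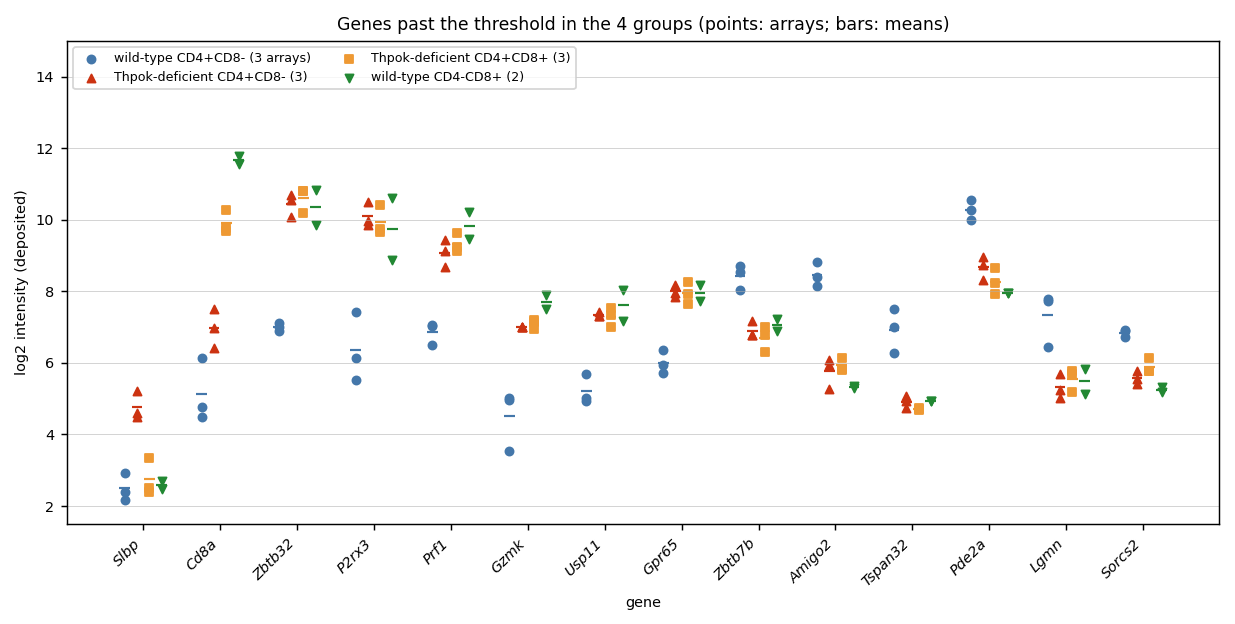
Deposited log2 intensity (vertical axis) of 14 genes past the threshold in either fit of the main comparison, in all 4 groups; each point is an array and each short bar a group mean, for wild-type CD4+CD8- (circles), Thpok-deficient CD4+CD8- (triangles), Thpok-deficient CD4+CD8+ (squares) and wild-type CD4-CD8+ cells (inverted triangles). Slbp reads 4.50 to 5.22 in the Thpok-deficient CD4+CD8- arrays, below the median probe set of these arrays (5.565 to 5.625). It reads 2.40 to 3.33 in Thpok-deficient CD4+CD8+ cells, below the smell receptor median of each array. Cd8a reads 11.56 and 11.78 in CD8 cells against a range of 6.41 to 7.50 in the Thpok-deficient CD4+CD8- arrays.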

How the data were processed

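The authors deposited 1 table of log2 intensities for 16673 probe sets on 11 arrays. Per the submitters' processing notes, it was made with Partek and RMA, with mm9 as the genome build. The design text names an exon array and the labels a 3' IVT kit, so the array type is not settled here. Of the probe sets, 14970 carry 1 gene symbol, 1019 several and 684 none, and 14920 were matched to current genes by Entrez ID. Where several probe sets share a gene, the brightest on average stands for it.

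The deposited values were taken unchanged. With limma 3.58.1 under R 4.3.3, the 4 groups were fitted as means over the 11 arrays together (eBayes, 7 residual and 3.8 prior degrees of freedom). The Benjamini-Hochberg adjustment ran over the full table. The fit was repeated without wild-type CD4+CD8- replicate 3. The number of arrays limits the precision. Tables, promoters and figures were made with Python 3.11.15. Array weights used limma's gene-by-gene method, because its REML method did not converge. Promoters are from RefSeq, assembly GRCm38.p6.

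The comparison and the gene lists were chosen with earlier results of these data known. Genes are named if called in either fit, if among the 15 largest differences each way that did not overlap and had an unadjusted p under 0.01 in both fits, if among the 4 largest differences of a list (called genes first), or if on a fixed list of lineage and effector genes. Csf1r, Cd14 and Cd3e are named as defining markers. Predicted genes, pseudogenes, olfactory and vomeronasal receptors and antigen receptor segments are not named. Of the 989 entries of the 45 functional lists, 818 were measured. A replicate number was not treated as a pair, since the labels do not say that it marks a shared preparation. Deviations of same-numbered arrays correlated at 0.212, -0.256 and -0.112, and those of differently numbered arrays at -0.479 to 0.424. A structure shared across groups by preparation was not tested.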

Additional observations from a re-analysis of the deposited data

How the results depend on the processing

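The 14 calls made between the CD4+CD8- groups with all arrays depended on the processing. The number was 1 with only the 6 arrays compared, 8 after median centring, 2 after scaling to an equal median absolute deviation, 17 after a further quantile normalization, 40 among probe sets above the median signal, 39 with 9 arrays (leaving out replicate 3 of both wild-type CD4+CD8- and Thpok-deficient CD4+CD8+ cells) and 2078 with array weights, which gave wild-type replicate 1 a weight of 4.27 and replicate 3 one of 0.0853. Leaving out 1 array of either group gave 2 to 35. Leaving out an array of the other groups, an alternative chosen after seeing the data, gave 4 to 16. Amigo2 and Zbtb32 were each called under 13 of 14 alternatives. The other called genes were called under 3 to 9 of their 13 or 14 alternatives, for example P2rx3 under 4 and Prf1 under 7. No called gene changed direction under any alternative. Against wild-type CD4-CD8+ cells, the 3 calls became 1 to 4 when 1 array was left out.

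With the replicate block 264 probe sets were called between the CD4+CD8- groups, 5 against wild-type CD4-CD8+ cells (3 without it) and 1 against Thpok-deficient CD4+CD8+ cells (0 without it). The labels do not say that the numbers pair the arrays, so the pairing is not used elsewhere.

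Among the named genes short of the threshold, Runx3 and Tbx21 turned to -0.37 and -0.17 with an equal median absolute deviation. Zbtb7a turned to -0.17 without wild-type replicate 3 and with the 9 arrays, to -0.052 after quantile normalization and to -0.25 with array weights, and its range with 1 array left out was -0.17 to 0.36. The causes were not tested. The medians of the DNA replication (0.87 to 1.46), mitosis (0.95 to 1.98), granule killing (0.85 to 1.55) and quiescence lists (-1.17 to -0.18) kept their sign under all 14 alternatives, while that of glycolysis ran from -0.05 to 0.82.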
